A study of Mus musculus with 6 samples.

Results

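The cytosolic ribosomal protein genes were examined in RNA-seq of Hepa1-6 cells, a mouse hepatoma line of C57/L origin. Members were chosen by name: each gene whose symbol starts with Rpl or Rps followed by a digit, together with Rplp0, Rplp1, Rplp2 and Rpsa, while the S6 kinase genes and names ending in -ps were left out. The rule kept 96 of the 25078 genes in the tables. They were 46 core proteins of the large subunit, 31 core proteins of the small subunit, 9 paralogues, 7 pseudogene rows whose names carry a number after -ps, and 3 further names (Rps19bp1, Rpl32l and Rpl37rt). The study asked what loss of midnolin does to hepatoma cells, and 6 libraries were made. The library called wt (1 library) came from parental cells with no treatment. The scr group (25-2 and 50-1) carried a lentiviral scramble vector, and the knockdown group (25-3, 50-2 and 50-5) carried a lentiviral midnolin shRNA vector, although the sample titles call it KO. Both transduced groups were selected with puromycin and grown from single cells after limiting dilution, so their libraries may differ by clone as well as by vector, and p-values measure the spread between these libraries. For RNA-seq the paper names the knockdown clones sh1 and sh2, and it speaks of a scr control clone. The labels do not tie the libraries to clones, and libraries of a group may share a clone, so there may be fewer clones than libraries. If the 3 knockdown libraries came from sh1 and sh2 alone, some of them share a clone. The labels do not say what the numbers 25 and 50 stand for.

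Ribosomal proteins assemble with ribosomal RNA into the small subunit, which decodes mRNA, and the large subunit, which forms the peptide bond. Their mRNAs are among the most abundant of a growing cell, and many of them begin with a short run of pyrimidines (the TOP form) through which mTOR signalling and Larp1 control their translation. In mammals nearly every one of these genes also has intronless copies scattered over the genome, most of them pseudogenes.

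Total counts lay between 25586301 and 33119710 per library, and the ribosomal RNA precursor Rn45s took 10.1% to 13.1% of them. Midn, the gene targeted by the shRNA, had 60.5 RPKM (reads scaled to exon length and library size) in wt, 59.6 and 50.8 in scr, and 20.3, 21.8 and 22.1 in knockdown (log2 fold change -1.38, FDR 0.00777 by edgeR). The hepatocyte and hepatoma markers, of which 8 of 11 had a mean over 1 RPKM and only Serpina1a stayed under 0.1 throughout, summed to 2940 to 4010 RPKM in scr, 225 to 1020 in knockdown and 5260 in wt. Macrophage markers summed to 40.7 to 68.7 RPKM in scr and 21.4 to 29.6 in knockdown, with Adgre1 of the 6 genes under 0.1 throughout. Fibroblast markers gave 562 to 594 in scr and 411 to 576 in knockdown, with 4 of 7 (Col1a2, Col3a1, Pdgfrb and Lum) under 0.1 throughout. Cholangiocyte markers gave 35.5 to 57.2 in scr and 34.4 to 50.5 in knockdown, and endothelial markers at most 0.371 in both groups. The lower sums of the hepatocyte and macrophage markers moved with the groups, although single markers differed in direction. Alb (log2 fold change -4.08) and Fgb (-3.33) were below and Apob (3.93) and Hnf4a (1.23) above scr, and among macrophage markers Cd14 (-1.85, FDR 0.0157) carried the sum while Cd68 (0.97) and Csf1r (2.29) were above. The fibroblast marker Pdgfra (3.10, FDR 0.014) was called higher, and the cholangiocyte marker Krt7, with 21.3 and 13.9 RPKM in scr and 0.858, 1.89 and 2.15 in knockdown, was called lower (-3.44, FDR 0.0133). Of the 16 marker genes tested, Cd14, Krt7 and Pdgfra passed the FDR, and the part of the markers in the results given here was not tested. In bulk RNA, fewer cells of a kind and less RNA per cell cannot be told apart.

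Because so many copies exist, the coding sequence of each gene was compared with all other annotated transcripts (GENCODE on GRCm38) in stretches of 50 bases. Rps29, a small zinc-binding protein of the small subunit, and Rpl8, near the peptidyl transferase centre of the large subunit, lay toward opposite ends of the range. Of the stretches of Rps29 0% belonged to that gene alone, and of those of Rpl8 91.3%. The measured levels of these genes lay far apart. Rps29 had 1.57 and 1.62 RPKM in scr and 0.812, 0.635 and 0.697 in knockdown, whereas Rpl8 had 958 and 1609 in scr and 1276, 1303 and 1075 in knockdown.

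The pair of Rpl36a, an X-linked protein of the large subunit, and its autosomal paralogue Rpl36al shows in bases how near paralogues can be. Their coding sequences were identical at 279 of 318 bases (87.7%). The stretch below (chrX:134586105-134586164, plus strand, and chr12:69183047-69183106, minus strand) lies within a single exon of each gene. It was chosen among stretches with at most 8 differences, and capitals mark the 8 of 60 bases that differ.
Rpl36a: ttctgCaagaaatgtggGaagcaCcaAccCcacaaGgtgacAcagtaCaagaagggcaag
Rpl36al: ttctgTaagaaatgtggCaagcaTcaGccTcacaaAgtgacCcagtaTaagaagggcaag
The proteins are nearly the same, and 0% of the stretches of Rpl36a and 18.6% of those of Rpl36al were unique. The 2 other genes that share stretches with Rpl36al were both pseudogenes, so Rpl36a was not among them. Mean levels over the 5 compared libraries were 2.66 RPKM for Rpl36a and 47.99 RPKM for Rpl36al.

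The same held across the core genes as a description. In 30 of 77 core genes no coding stretch was unique, and their median level was 9.51 RPKM. It was 30.4 RPKM for the 27 genes with some but under 20% unique stretches, 274.5 RPKM for the 9 genes with 20% to under 50%, and 421.9 RPKM for the 11 genes with 50% or more. Spearman's rho between the unique share and the mean level was 0.683 across these 77 genes, which share libraries and are not independent. By contrast, the median unique share was 100% in the 78 mitochondrial ribosomal protein genes. Rpl41, which encodes a very short peptide of the large subunit, was an exception with 0% unique stretches and 472.5 RPKM. How reads that match several places were counted is not stated, so the levels of genes without unique stretches are uncertain, and the part of the copies in these levels was not tested.

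**Figure D1:**
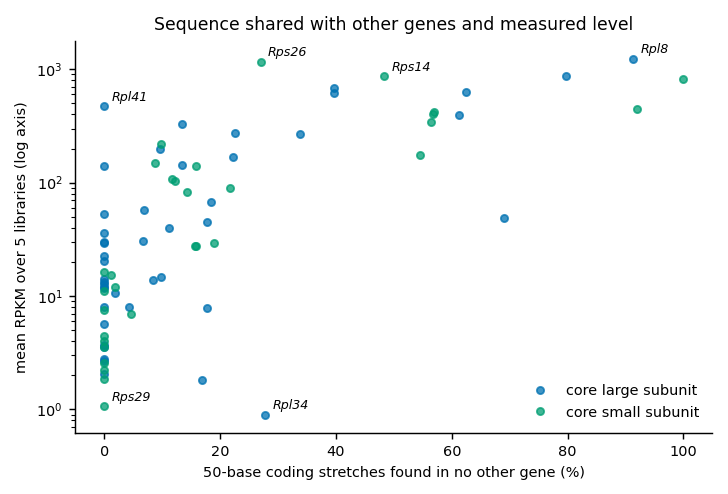
Mean RPKM over the 5 compared libraries (log axis) against the share of 50-base coding stretches found in no other gene, for the core genes of both subunits (points; Rpl26 at 0 RPKM is not drawn). The genes with 0% unique stretches reach down to 1.07 RPKM (Rps29), and Rpl8 with 91.3% stands at 1244 RPKM.

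The sum of the core genes was lower in each knockdown library than in each control library. Core RPKM summed to 15238 and 14885 in scr and to 11992, 11083 and 10794 in knockdown, and it was 16159 in wt. The mean fell from 15062 ± 250 (SD, n = 2) in scr to 11290 ± 625 (SD, n = 3) in knockdown, a difference of -25%. Rps14 and Rps26 together made up 32.5% of this difference, and without the 8 called core genes the sums were 10754 and 10567 in scr against 9318, 8704 and 8442 in knockdown. As a share of all counts, the 96 members took 1.365% and 1.26% in scr, 1.13%, 0.9965% and 0.9965% in knockdown, and 1.451% in wt. The small subunit made up the larger part of the difference in counts, with 0.567% ± 0.0544 (SD, n = 2) in scr and 0.403% ± 0.03 (SD, n = 3) in knockdown, whereas the large subunit took 0.678% ± 0.0171 and 0.57% ± 0.0425. The knockdown libraries lay below both scr libraries for both subunits. No test was run on these sums.

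Of the 96 members, 87 exceeded 1 RPKM in 1 or more of the 5 compared libraries and were tested. The 9 members not tested were Rpl10l, Rpl26, Rpl31-ps12, Rpl34-ps1, Rpl39l, Rpl3l, Rps15a-ps4, Rps27rt and Rps4l, and Rpl10l, Rpl26, Rpl34-ps1 and Rps27rt had 0 counts in all 6 libraries. Between knockdown and scr, 67 of the 87 tested members had a negative and 20 a positive log2 fold change. Their median was -0.25, while that of all 11577 genes tested was -0.01. By edgeR's quasi-likelihood test, 9 members (10.3%) were lower at an FDR under 0.05 and a fold change of at least 1.5, against 5.23% of all genes tested, and 0 were higher, against 5.40% of all genes. At the FDR alone 10 members were lower and 0 higher, against 5.40% and 5.50% of all genes. At an unadjusted p under 0.05, 28 members were lower and 0 higher, against 16.5% and 15% of all genes, and DESeq2 and limma likewise called 0 members higher. All 3 knockdown libraries lay below both scr libraries for 43 members (49.4%), against 24.5% of all genes, and above both for 6 members, against 25.7%.

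The calls depended on single libraries, among the members as over all genes. Without knockdown 25-3 or without knockdown 50-2 there were 0 members called, and without knockdown 50-5 there was 1 (Rps14, FDR 0.0499). The count over all genes dropped from 1230 to 259, 131 and 346 in the same fits. There 0.806%, 0.364% and 1.2% of all genes tested were called lower, against 0%, 0% and 1.16% of the members. Without scr 25-2, 7 members (8.05%) were called lower, a smaller share than the 9.87% of all genes called lower in that fit. Without scr 50-1, 12 members (13.8%) were called lower, against 5.39% of all genes, and Rps19bp1 was called higher. The median log2 fold change of the members stayed between -0.28 and -0.23 in all these fits.

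**Figure D2:**
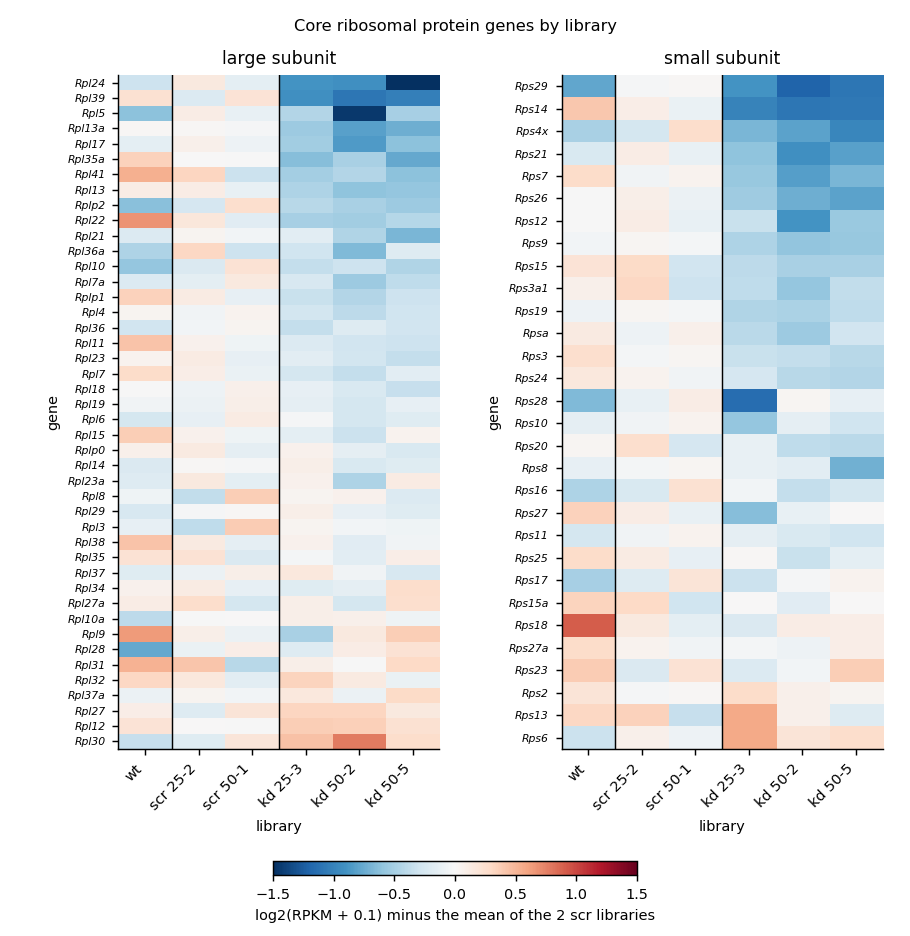
Level of each tested core gene (rows) in each library (columns), as log2(RPKM + 0.1) minus the mean of both scr libraries, for the large and the small subunit, with rows in the order of the log2 fold change. Blue is below and red above scr; 62 of the 76 tested core genes have a negative log2 fold change, and 74 of the 76 are drawn.

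Among the small subunit proteins, 4 of 31 (12.9%) were lower by the full call, against 5.23% of all genes. A negative log2 fold change was found in 27 (87.1%), against 50.9% of all genes (median -0.34 in the small subunit). The 4 were Rps14, Rps4x, Rps21 and Rps26. Rps14, a protein of the platform whose human counterpart lies in a region lost in some myelodysplastic syndromes, had 1355 and 1183 RPKM in scr and 633, 597 and 600 in knockdown, with 1671 in wt. The groups did not overlap and the knockdown mean was 48.1% of the scr mean. It fell by 1.07 ± 0.127 (SE) on the log2 scale (FDR 0.011). Rps14 was the core gene of rank 2 and 3 in scr and of rank 6 or 7 in knockdown.

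Rps26, which contacts the mRNA near its exit and is mutated in Diamond-Blackfan anaemia, had 1595 and 1411 RPKM in scr and 1038, 904.9 and 861 in knockdown. Its log2 fold change was -0.70 ± 0.142 (SE, FDR 0.0373), and among the core genes it had rank 1 and 2 in scr and rank 2 in each knockdown library. Rps21 had 252 and 216 RPKM in scr and 153, 123 and 133 in knockdown (log2 fold change -0.79 ± 0.152, FDR 0.0327). Its wt value of 199.5 lay below both scr values and above all knockdown values. Rps4x, the X-linked form of a small subunit protein, had 246 and 353 RPKM in scr and 183, 168 and 150.0 in knockdown (log2 fold change -0.85 ± 0.187, FDR 0.0446). On the log2 scale the scr values of Rps4x were farther apart than those of Rps14, Rps21 and Rps26. Rps9, which binds ribosomal RNA early in assembly, passed the FDR but not the fold, and it is named here after its values were seen. It had 531 and 508 RPKM in scr and 377, 344.5 and 349.5 in knockdown (log2 fold change -0.55 ± 0.118, FDR 0.0415).

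Among the large subunit proteins, 4 of 45 tested (8.89%) were lower by the full call, against 5.23% of all genes. A negative log2 fold change was found in 35 (77.8%), against 50.9% of all genes (median -0.19 in the large subunit). Rpl39, a very small protein in the wall of the peptide exit tunnel, had 407 and 543 RPKM in scr and 248, 221 and 232 in knockdown. It fell by 1.03 ± 0.159 (SE) on the log2 scale (FDR 0.019), and its wt value of 551 lay above both scr values. Rpl13a, which also takes part in silencing of inflammatory mRNAs outside the ribosome, had 521 and 506 RPKM in scr and 351, 292 and 309 in knockdown (log2 fold change -0.71 ± 0.134, FDR 0.0314). Here the 2 scr values lay close together and the groups were far apart. Rpl35a, also mutated in Diamond-Blackfan anaemia, had 57.1 and 56.9 RPKM in scr and 36.7, 40.8 and 33.5 in knockdown (log2 fold change -0.64 ± 0.146, FDR 0.0496). The paralogue Rpl36al was called as well, with 60.5 and 63.1 RPKM in scr and 35.5, 38.3 and 42.7 in knockdown (log2 fold change -0.68 ± 0.154, FDR 0.0473). Rpl39 and Rps14 were called in 11 of 11 other settings that kept all libraries, Rps21 and Rps26 in 10, Rpl13a in 9, Rpl36al and Rps4x in 7, and Rpl35a in 3.

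**Figure D3:**
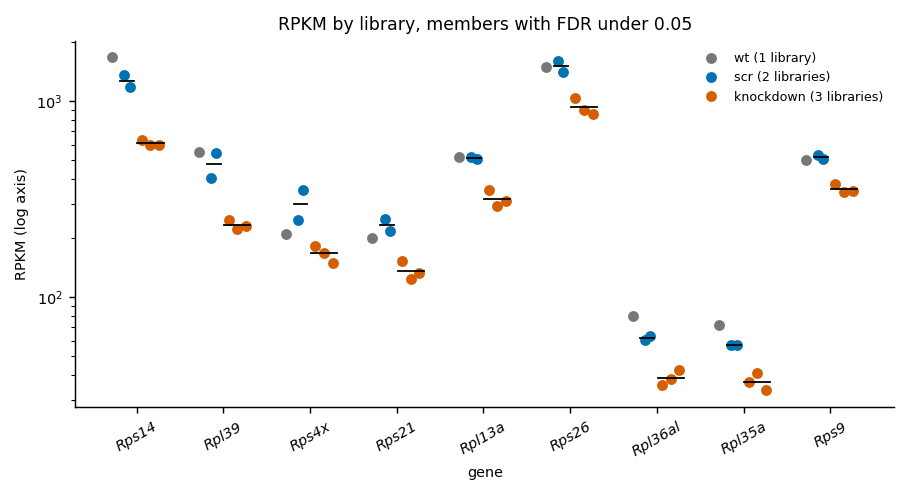
RPKM (log axis) in each library of 9 of the 10 members with an FDR under 0.05, in the order of the log2 fold change. Points are libraries and lines are group means; for each of these genes all 3 knockdown libraries lie below both scr libraries, and Rps9 is the gene that does not reach 1.5-fold.

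Since TOP mRNAs are defined by their first bases, the annotated starts of these genes were read from the RefSeq promoter table (GRCm38.p6). The windows of the called genes that the table holds are shown first and are followed by 3 core genes at 100 RPKM or more with a fold change near 0. Each runs from 15 bases before the annotated start through 30 transcribed bases, and capitals mark the run of a C followed by at least 4 C or T nearest to the start. Such runs were searched on the gene's strand alone, where they start within 15 bases of the annotated start.
Rpl39 (chrX:37085193-37085237, minus strand): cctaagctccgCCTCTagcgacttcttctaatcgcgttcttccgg
Rps4x (chrX:102189362-102189406, minus strand): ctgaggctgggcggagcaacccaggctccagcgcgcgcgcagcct
Rps21 (chr2:180257364-180257408, plus strand): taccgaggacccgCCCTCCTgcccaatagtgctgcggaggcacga
Rpl13a (chr7:45128716-45128760, minus strand): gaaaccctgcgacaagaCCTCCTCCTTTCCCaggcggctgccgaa
Rps26 (chr10:128626477-128626521, minus strand): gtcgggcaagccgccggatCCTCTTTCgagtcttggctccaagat
Rpl36al (chr12:69184038-69184082, minus strand): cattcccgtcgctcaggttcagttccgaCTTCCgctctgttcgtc
Rpl35a (chr16:33056467-33056511, plus strand): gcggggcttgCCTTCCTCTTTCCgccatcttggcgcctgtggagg
Rps18 (chr17:33955636-33955680, minus strand): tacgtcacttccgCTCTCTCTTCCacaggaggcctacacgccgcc
Rpl14 (chr9:120571502-120571546, plus strand): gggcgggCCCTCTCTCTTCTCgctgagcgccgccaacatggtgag
Rplp0 (chr5:115559452-115559496, plus strand): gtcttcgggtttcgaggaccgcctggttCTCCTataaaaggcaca
Rpl13a carries a run of 14 pyrimidines and Rps4x has no run in its window. The genes near 0 hold such runs as well. Of 57 core genes in the table, 40 (70.2%) had a run near the start, against 44.9% of all 27025 genes there, and 13 (22.8%) had it at the annotated start itself, against 3.01%. The run was near the start in 5 of the 6 called core genes in the table and in 34 of the 49 tested core genes that were not called. These are matches of letters at annotated starts, and where transcription began in these cells was not measured.

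The most abundant core genes followed the calls only in part. Rpl8 had the highest mean level, and its knockdown values given above all lay between the scr values (log2 fold change -0.09, FDR 0.838). Its direction turned without scr 50-1 (0.33). Rps14 and Rps26 are also among the 5 core genes of highest mean level. Rpl4, which lines the exit tunnel, had 956 and 1025 RPKM in scr and 816, 755 and 802 in knockdown (log2 fold change -0.34, FDR 0.13). The groups of Rpl4 did not overlap, but it missed the FDR threshold. Of the 27 core genes at 100 RPKM or more, 25 had a negative log2 fold change (median -0.38), 6 (22.2%) were called lower, against 5.23% of all genes, and 21 (77.8%) had groups that did not overlap in that direction, against 24.5%. Of the 20 tested core genes under 10 RPKM, 14 had a negative log2 fold change (median -0.08), and 0 were called by edgeR. At an unadjusted p under 0.05, 3 of these 20 were lower and 0 higher, against 16.5% and 15% of all genes. Rps7, a protein of the small subunit named after its values were seen, had 8.77 and 9.42 RPKM in scr and 6.09, 5.09 and 5.63 in knockdown (log2 fold change -0.71, FDR 0.0882 by edgeR). DESeq2 called it lower (FDR 0.0329), as did limma on log2(RPKM + 1) and edgeR with wt added, and both limma fits called Rps29 lower (FDR 0.024 and 0.0438). With at least 20% unique coding stretches, 19 of 20 core genes had a negative log2 fold change, the median was -0.38 and 4 (20%) were called lower by edgeR, against 5.23% of all genes. With no unique stretch, 20 of 30 had a negative log2 fold change, the median was -0.17 and 0 were called by edgeR. At an unadjusted p under 0.05, 5 of these 30 were lower and 0 higher, against 16.5% and 15% of all genes.

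Among the genes of lowest level, Rpl34 had 0.986 and 0.815 RPKM in scr and 0.781, 0.809 and 1.1 in knockdown, and its direction turned in 3 fits that left out 1 library. Rps23, at the decoding centre, had 1.53 and 2.09 in scr and 1.54, 1.73 and 2.34 in knockdown, and its direction turned in both of the settings with wt or the label number and in fits that left out scr 25-2 or knockdown 50-5. The largest negative values of the core genes were those of Rpl24 (log2 fold change -1.18 ± 0.373, FDR 0.0967) and Rps29 (-1.16 ± 0.391, FDR 0.11). Rpl24 had 3.35 and 2.74 RPKM in scr and 1.59, 1.55 and 0.935 in knockdown. Both genes had groups that did not overlap, both missed the threshold, and neither has a unique coding stretch. Rps29 was called by limma on log2(RPKM + 0.1) and on log2(RPKM + 1).

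The acidic stalk of the large subunit, which recruits the elongation factors, is made of Rplp0, Rplp1 and Rplp2. Rplp1 had 861 and 726 RPKM in scr and 630, 585 and 637 in knockdown (log2 fold change -0.37, FDR 0.13). Rplp2 had 268 and 381 in scr and 238, 227 and 218 in knockdown (log2 fold change -0.52, FDR 0.109), and without scr 25-2 it was called lower (-0.74, FDR 0.0203). Rplp0 had 705 and 589 in scr and 674, 589 and 551 in knockdown, with groups that overlapped (log2 fold change -0.11, FDR 0.666). None of the 3 passed the test with all libraries.

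Rpl5 and Rpl11, which form a particle that can bind Mdm2 and stabilise p53, did not pass either. Rpl5 had 18.8 and 16.3 RPKM in scr and 12.8, 6.38 and 12.4 in knockdown, the lowest being that of 50-2 (log2 fold change -0.75 ± 0.325, FDR 0.182). Rpl11 had 15.02 and 13.7 in scr and 12.4, 11.8 and 11.6 in knockdown (log2 fold change -0.28, FDR 0.296). Both have 0% unique stretches. Rps19, mutated in Diamond-Blackfan anaemia, had 35.4 and 34.2 in scr and 25.5, 24.9 and 26.7 in knockdown (log2 fold change -0.45 ± 0.13, FDR 0.0794). Rpsa, the laminin receptor precursor, had 17.03 and 18.9 in scr and 13.6, 12.2 and 14.7 in knockdown (log2 fold change -0.42, FDR 0.125). Rps19 and Rpsa thus lay below both scr libraries in all 3 knockdown libraries.

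Few core genes lay above scr, and 0 passed the test. The 5 largest positive log2 fold changes were 0.52 for Rpl30, 0.34 for Rps6, 0.31 for Rpl12, 0.24 for Rpl27 and 0.13 for Rps13. Rps6, the substrate of the S6 kinases, had 9.94 and 8.94 RPKM in scr and 14.1, 10.8 and 11.4 in knockdown (FDR 0.297). Rpl12 had 25.3 and 25.3 in scr and 32.8, 32.4 and 29.8 in knockdown (FDR 0.236). Rpl30 had 1.25 and 1.63 in scr and 1.97, 2.52 and 1.74 in knockdown (FDR 0.379). In these 3 genes all knockdown libraries lay above both scr libraries. Rps6 and Rpl12 have no unique coding stretch, and 16.9% of those of Rpl30 are unique.

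The paralogues of core genes can replace them in the ribosome in some tissues. Rpl22 and Rpl22l1, a pair that regulates each other's expression, both lay lower. Rpl22 had 66.2 and 52.5 RPKM in scr and 41.7, 41.1 and 43.7 in knockdown (log2 fold change -0.51, FDR 0.0801), and Rpl22l1 had 109 and 63.3 in scr and 59.6, 47.5 and 54.8 in knockdown (log2 fold change -0.69, FDR 0.138). Their groups did not overlap, and both were called lower without scr 50-1 (-0.66 and -1.02). For Rps27l, a p53 target, 168 and 149 RPKM in scr stood against 164.5, 148.9 and 169 in knockdown (log2 fold change 0.01, FDR 0.966), whereas its partner Rps27, with 0% unique stretches, had 2.66 and 2.26 in scr and 1.54, 2.26 and 2.47 in knockdown (-0.25, FDR 0.688).

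Rpl7l1, whose protein acts in assembly of the large subunit, had 31.2 and 27.6 RPKM in scr and 43.3, 37.4 and 32.2 in knockdown (log2 fold change 0.34, FDR 0.224), above scr in each library. Its partner Rpl7 had 326 and 284 in scr and 254, 237 and 272 in knockdown (-0.28, FDR 0.228), below scr in each library. Neither passed the test. Rpl10 (log2 fold change -0.41, FDR 0.263), Rpl36a (-0.43, FDR 0.472) and Rpl3 (-0.08, FDR 0.869) did not pass either, and Rpl3, a protein of the peptidyl transferase centre, turned to 0.35 without scr 50-1. The tissue-restricted paralogues Rpl3l, Rpl39l and Rps4l, expressed in muscle or testis, were listed at 0.0673 RPKM or less in every library.

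By edgeR, the numbered pseudogene rows and the 3 further names did not pass the test. Rps19-ps3 had 2.95 and 3.79 RPKM in scr and 1.78, 1.89 and 1.77 in knockdown (log2 fold change -0.90, FDR 0.13), and limma on log2(RPKM + 0.1) called it lower (FDR 0.0435). Rpl14-ps1 was read at 339 and 335 RPKM in scr and 359, 341 and 345 in knockdown, above its parent Rpl14, which had 177 and 173 in scr and 187, 149.8 and 155 in knockdown. Of the stretches 22.3% in the coding sequence of Rpl14 and 21.7% in the whole transcript of Rpl14-ps1 were unique. Rps19bp1, which encodes a binding partner of Rps19 and Sirt1 and no ribosomal subunit, had 15.02 RPKM in scr 25-2 and 39.2 in scr 50-1, and 40.1, 43.2 and 29.7 in knockdown (log2 fold change 0.46, FDR 0.485). Its knockdown values thus lay close to 1 scr library and far from the other. Rpl14, Rpl14-ps1 and Rps19-ps3 are named after their values were seen.

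The ribosomal proteins outside the naming rule that were examined gave 0 calls. Rack1, on the head of the small subunit, had 1226 and 1320 RPKM in scr and 1077, 953 and 905 in knockdown (log2 fold change -0.39, FDR 0.116). Fau, a fusion of a ubiquitin-like protein with a small subunit protein, had 286 in scr 25-2, 145 in scr 50-1, and 284, 269.5 and 291 in knockdown (0.37, FDR 0.428).

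The other gene lists of the ribosome were set beside the members. Of 61 tested ribosome biogenesis genes, 48 had a positive log2 fold change (median 0.31), 7 (11.5%) were called higher and 1 (1.64%) lower, against 5.40% and 5.23% of all genes. Polr1e, a subunit of RNA polymerase I, had 3.52 and 3.93 RPKM in scr and 8.7, 8.0 and 6.82 in knockdown (log2 fold change 1.06, FDR 0.0233), and Tsr1, a factor of small subunit maturation, had 53.9 and 66.6 in scr and 127, 116 and 108 in knockdown (0.95, FDR 0.0214). Gnl3l, a nucleolar GTPase, was the gene called lower (-0.72, FDR 0.0384). Of 76 tested mitochondrial ribosomal protein genes, 61 had a positive log2 fold change (median 0.26), 3 (3.95%) were called higher and 1 (1.32%), Mrps6, was called lower (-2.07, FDR 0.0061). Both shares lay under those of all genes. Mrpl19 (0.89, FDR 0.0459) and Mrpl51 (0.79, FDR 0.0417) had the largest fold changes of the 3 called higher. Summed RPKM of the mitochondrial genes was 2230 and 2351 in scr and 2511, 2465 and 2507 in knockdown, above both scr libraries but below the 2725 of wt.

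A list of 21 genes, mainly translation factors, was taken to have mRNAs of the TOP form, which was not checked for this list. Of these 21, 13 had a negative log2 fold change (median -0.16). By the full call 0 were higher and 1 (4.76%), Eef2, was lower (-0.63, FDR 0.0441), against 5.40% and 5.23% of all genes. Among 21 regulators, 2 (9.52%) were called lower and 0 higher, against 5.23% and 5.40% of all genes. Of the 11 other settings that kept all libraries, Eef2 was called in 6, Mrpl19 in 7, and Gnl3l, Mrpl51 and Rptor in 8 each. Rptor, the mTORC1 scaffold, had 14.2 and 14.5 RPKM in scr and 8.9, 9.57 and 9.33 in knockdown (-0.64, FDR 0.0273), and Yy1, a transcription factor, had 27.1 and 22.9 in scr and 14.8, 12.4 and 13.6 in knockdown (-0.89, FDR 0.0227). Of 12 genes of ribosome stress and p53, 7 had a negative log2 fold change (median -0.15) and 0 were called by edgeR, with 3 of the 12 lower and 2 higher at an unadjusted p under 0.05, against 16.5% and 15% of all genes.

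**Figure D4:**
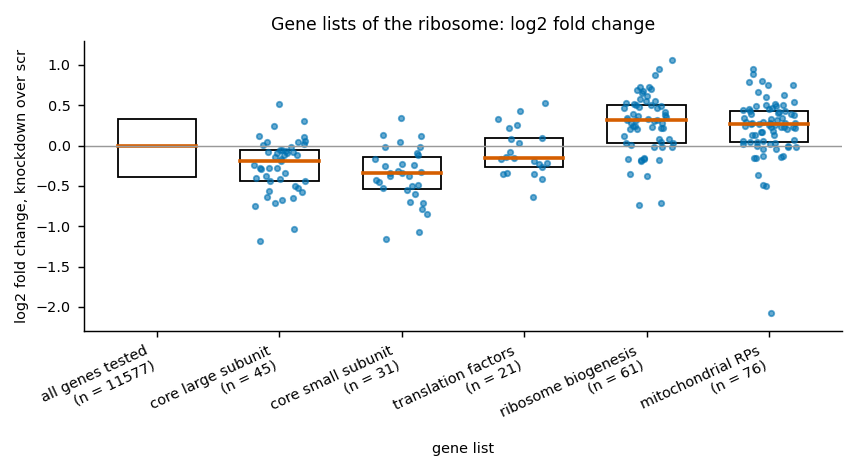
Log2 fold change (knockdown over scr) of the tested genes of 5 lists (points), beside all genes tested, with the median (orange line) and the middle 50% (box). The medians are -0.19 and -0.34 for the core proteins of the large and the small subunit, and 0.31 and 0.26 for ribosome biogenesis and mitochondrial ribosomal proteins. The list labelled translation factors also holds genes of other kinds.

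The fold change of the members varied with their place in the genome. For each tested member, the median log2 fold change of the other tested genes within 5 Mb to either side was taken (genes on mm10). It ranged from -0.66 to 0.96 between members, and its Spearman's rho with the member's own log2 fold change was 0.556 over 87 members and 0.713 over the 44 core genes with a mean of 20 RPKM or more. Members near each other share neighbours, so these points are not independent. In the 17 members whose neighbours had a median under -0.2, all 17 had a negative log2 fold change, the median was -0.68 and 7 were called. Of all genes tested, 5.23% were called lower. In the 61 members with neighbours between -0.2 and 0.2, 46 had a negative log2 fold change and the median was -0.17. Of these 61, 2 were called, a share under that of all genes. In the 9 members with neighbours over 0.2, 4 had a negative log2 fold change, the median was 0.0077 and 0 were called by edgeR, with 1 (Rps19-ps3) at an unadjusted p under 0.05.

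The 4 tested core genes on chromosome X (Rpl10, Rpl36a, Rpl39 and Rps4x) all had negative values, from -1.03 to -0.41, and their neighbours had medians from -0.48 to -0.30. The 6 tested core genes on chromosome 11 had log2 fold changes from -0.28 to 0.25, with neighbours between -0.09 and 0.12. With the neighbours' median subtracted, the median over all 87 members was -0.24, close to that without subtraction. Of the 10 members past the FDR, 5 lay beyond 1.5-fold after subtraction, with -0.73 for Rpl39, -0.69 for Rpl13a, -0.64 for Rps14, -0.62 for Rps21 and -0.61 for Rps9. Of these 5, Rps9 had not reached 1.5-fold before subtraction (-0.55), and its neighbours had a median of 0.06. The values were -0.42 for Rps26, -0.38 for Rps4x, -0.30 for Rpl35a and -0.16 for Rpl36al. The part of the neighbourhood in the change of these genes was not tested.

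The single wt library gives values without a test. Of the 76 tested core genes, wt lay above both scr libraries in 28 (36.8%, against 33.2% of all genes tested), below both in 30 (39.5%, against 29.3%) and between them in 18, and the median log2 difference of wt from scr was 0.02. All 3 knockdown libraries lay below both wt and scr in 33 core genes (43.4%), against 19.5% of all genes tested. For the mitochondrial ribosomal proteins wt was above both scr libraries in 58 of 76 genes (76.3%). Rps18, of which wt had 193 RPKM against 114 and 92.4 in scr and 88.1, 111 and 110 in knockdown, lay higher in wt than in all 5 transduced libraries, and it is named after its values were seen.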

How the data were processed

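RNA was depleted of ribosomal RNA and sequenced from 6 libraries. The authors used TopHat2 with mm10, and the deposited raw counts per gene came from HTSeq and the RefSeq annotation. The HTSeq version is 0.6.1p1 in the submitters' processing notes and differs from that in the paper's methods. The strand setting and the handling of reads with several matches are not stated, which leaves counts of overlapping genes and of copies uncertain. RPKM values were deposited too, computed by the authors with TMM-scaled libraries and summed exon length. Library columns were matched by name, and 0 were left unmatched.

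Counts of 3 knockdown and 2 scr libraries were compared with edgeR 4.0.16 (quasi-likelihood test, TMM) in R 4.3.3, without wt, among the 11577 genes that exceeded 1 RPKM in 1 or more of them, with Benjamini-Hochberg adjustment. Calls needed an FDR under 0.05 and a fold change of at least 1.5. The script was tested on simulated data. Alternatives used DESeq2 1.42.0, limma 3.58.1, other scalings and filters, wt among the controls, the label number, and each library left out. Errors of log2 fold changes are standard errors. Copies were searched in GENCODE M21 transcripts, and starts in the RefSeq promoter table. No p-value was computed over a list.

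Named genes were the called members, the 5 core genes at each end of fold change and of level, the paralogues with their partners, 13 chosen genes and up to 2 called genes per direction and list. Others were chosen after their values were seen. Some items that meet these rules are not reported here by name. Members and lists were chosen with earlier results of these data known. Total counts of 25586301 to 33119710 and the number of libraries limit precision.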

Additional observations from a re-analysis of the deposited data

How the results depend on the processing

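The median log2 fold change of the members stayed negative in each of the 16 alternatives, between -0.28 and -0.23, and 0 members were called higher except Rps19bp1 without scr 50-1. DESeq2 called 2322 genes in all against 1230 and gave 19 members lower at the FDR alone against 10. By the full call it gave 11 members lower (12.6%), against 9.98% of all genes. Limma on log2(RPKM + 0.1) gave 5 members lower by either rule (5.75% by the full call, against 3.7% of all genes). With the label number as a term, 807 genes were called and 4 members were lower by either rule (4.6%, against 3.35% of all genes). With wt among the controls Rps23 turned to -0.086 and Rps27l to -0.28, and with the label number Rps23 turned to -0.028.

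With 1 library left out, 131 to 2273 genes were called in all, 0 to 12 members were lower by either rule and 0 to 1 higher by either rule. Log2 fold changes of genes that turned then ranged from -0.16 to 0.28 for Rps23, -0.15 to 0.14 for Rpl34, -0.24 to 0.0396 for Rplp0, -0.057 to 1.31 for Rps19bp1, -0.18 to 0.55 for Rps13, -0.40 to 0.33 for Rpl8, -0.40 to 0.35 for Rpl3, -0.072 to 0.11 for Rps27l and -0.034 to 0.96 for Fau. None of these was called with all libraries. Leaving out a library reduces the samples, and the cause of the other shifts was not tested. No paired analysis was possible because the compared groups share no full replicate label. The number 25 or 50 occurs in both groups, but its meaning is not given, and it was fitted only as the added term above. Depth and the number of clones limit the comparison.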
